A study of Arabidopsis thaliana with 3 samples.

Results

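*IBM1* (AT3G07610), the gene of the histone demethylase INCREASE IN BONSAI METHYLATION 1, was followed through 3 methylomes of *Arabidopsis thaliana* leaves, with most attention to the long intron that carries heterochromatic marks. The gene was taken by its identifier and was 1 of 27444 protein-coding genes of the nuclear chromosomes in the annotation. In TAIR10 coordinates it lies on chromosome 3 from 2425884 to 2433113 on the plus strand. Its transcript with the longest coding sequence (NM_001202909.1) divides it into 17 exons and 16 introns, and 74 tiles of 100 bp overlap it. The annotated intron of greatest length has 1974 bp (chromosome 3, 2429125 to 2431098) and is intron 7 of another transcript (NM_111640.2), which has 16 exons. A small extra exon, exon 8 of the transcript of 17 exons (2429559 to 2429652), lies inside it. A short transcript (NM_001084652.2) runs into the same intron and ends there at 2430203.

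DNA was bisulfite converted and sequenced from mature leaves of soil-grown plants of *Arabidopsis* Col-0. Cytosines without a methyl group become uracil in this treatment, so reads with C over reads with C or T give the methylation level of a cytosine. There was 1 library of the wild type (WT) and there were 2 of plants with reduced histone H3.3 (*h3.3kd*), labelled replicates 1 and 2 and called *h3.3kd* 1 and *h3.3kd* 2 here. Where 3 values follow each other without names, they are for WT, *h3.3kd* 1 and *h3.3kd* 2 in that order. The *h3.3kd* plants were homozygous for T-DNA insertions in *HTR4* (*htr4-2*) and *HTR8* (*htr8-2*) and expressed an artificial microRNA against *HTR5*, the remaining H3.3 gene, from the *HTR5* promoter, so that H3.3 was reduced and not absent. Per the study the *h3.3kd* leaves came from the transgenic lines *h3.3kd-2* and *h3.3kd-3*. Both lines carried the same artificial microRNA (*amiR-HTR5-II*) and were raised from 1 parental genotype. The labels do not say which line each replicate is. Nothing in the labels says how many plants were pooled. Leaves were harvested after a shift from short to long days, and no exact age is stated.

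IBM1 is a demethylase of the JmjC type that removes methylation of lysine 9 of histone H3 from transcribed genes. Without it, genes gain this mark together with DNA methylation in the CHG context (H is A, C or T), which the methyltransferase CMT3 adds where the mark is present. The gene is itself under a chromatin-based control. Its long intron is a patch of heterochromatin inside an active gene, and the proteins EDM2, IBM2 and AIPP1 are needed to transcribe through the patch. The full-length mRNA that results encodes the catalytic JmjC domain, whereas the short transcript ends in the intron and lacks it. In the annotation, 685 codons of the 16-exon transcript lie before the intron and 342 after it. CG methylation of exons, in contrast, is the ordinary gene body methylation of active plant genes, copied at each replication by MET1.

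The part of the intron that carried CHG methylation is shown first, from the base after the end of the short transcript on, in 2 stretches that follow each other. These are reference bases of chromosome 3 on the plus strand, and capitals mark each cytosine in a CHG context with a pooled level of at least 10% over the 3 libraries (a capital G is such a cytosine on the minus strand).
2430204 to 2430500: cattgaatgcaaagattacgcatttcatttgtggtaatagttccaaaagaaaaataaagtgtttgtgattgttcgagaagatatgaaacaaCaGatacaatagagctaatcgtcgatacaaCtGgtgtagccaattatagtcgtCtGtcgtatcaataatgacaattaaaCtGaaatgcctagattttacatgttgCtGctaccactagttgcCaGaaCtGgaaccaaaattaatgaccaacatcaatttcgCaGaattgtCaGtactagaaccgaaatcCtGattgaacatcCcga
2430501 to 2430655: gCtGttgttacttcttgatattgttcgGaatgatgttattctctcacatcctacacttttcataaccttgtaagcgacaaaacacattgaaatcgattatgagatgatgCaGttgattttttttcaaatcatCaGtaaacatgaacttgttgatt
Nearly all capitals stood in pairs around a CAG or CTG, whose cytosines face each other on the strands. The capitals began 92 bp after the end of the short transcript and spanned 341 bp (2430295 to 2430635).

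The second set shows the CG dyads (a CG and the CG facing it on the other strand) outside the long intron that changed from methylated to unmethylated, or the reverse, in 1 or both *h3.3kd* libraries. Each is given as 32 reference bases of the plus strand of chromosome 3, with the dyad in capitals, and named by the position of its C.
Exon 4, 2427090: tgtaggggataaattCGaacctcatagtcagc
Intron 5, 2427526: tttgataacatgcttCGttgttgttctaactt
Exon 6, 2427644: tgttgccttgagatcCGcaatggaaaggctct
Exon 7, 2428973: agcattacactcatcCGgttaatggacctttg
Exon 12, 2431917: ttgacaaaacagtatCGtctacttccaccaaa
Exon 15, 2432448: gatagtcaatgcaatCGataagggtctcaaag
Exon 16, 2432581: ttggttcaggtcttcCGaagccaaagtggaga
The last of these passed from unmethylated to an intermediate level in *h3.3kd* 1 and to methylated in *h3.3kd* 2.

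The libraries held 839704204 (WT), 822515332 (*h3.3kd* 1) and 842326850 (*h3.3kd* 2) calls, or 19.2 to 19.7 per cytosine. Over the 2688 cytosines of *IBM1* the means were 21.6, 21.8 and 21.5 calls, and over the long intron they were 24.8, 23.7 and 23.9. WT was a single library, so two-sided Fisher's exact tests below compare libraries and not genotypes, the spread of the *h3.3kd* pair is the only replicate error, and a permutation of 1 library against 2 could not go below 0.333. Intervals are 95% Wilson intervals that cover counting error only. The false discovery rate (FDR) was taken over all features of the same kind in the nuclear genome. A feature was called where both *h3.3kd* libraries differed from WT in the same direction at an FDR under 0.01 and by at least 20 percentage points (tiles) or 10 points (exons, introns, gene bodies).

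Methylation of *IBM1* in WT fell into separate blocks of CG alone and 1 block of CG and CHG. Exon 6, the longest exon (2427556 to 2428426), had a CG level of 93.3% (686 calls), exon 12 of 91.3% (231 calls) and exon 10 of 86.2% (87 calls). Exon 4 was at 54.4%, exon 7 at 30.2% and exon 15 at 50%. The CHG level of these 6 exons was at most 1.15% in WT. Among the tested tiles of WT, CHG levels above 3% were confined to the tiles from 2430201 to 2430700 inside the long intron. CG methylation of the intron began earlier, at 2430122, which is 81 bp before the end of the short transcript, and ended at 2430595. The 1000 bp on either side of the gene were at 0.60% and 0.96% for CG in WT.

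**Figure D1:**
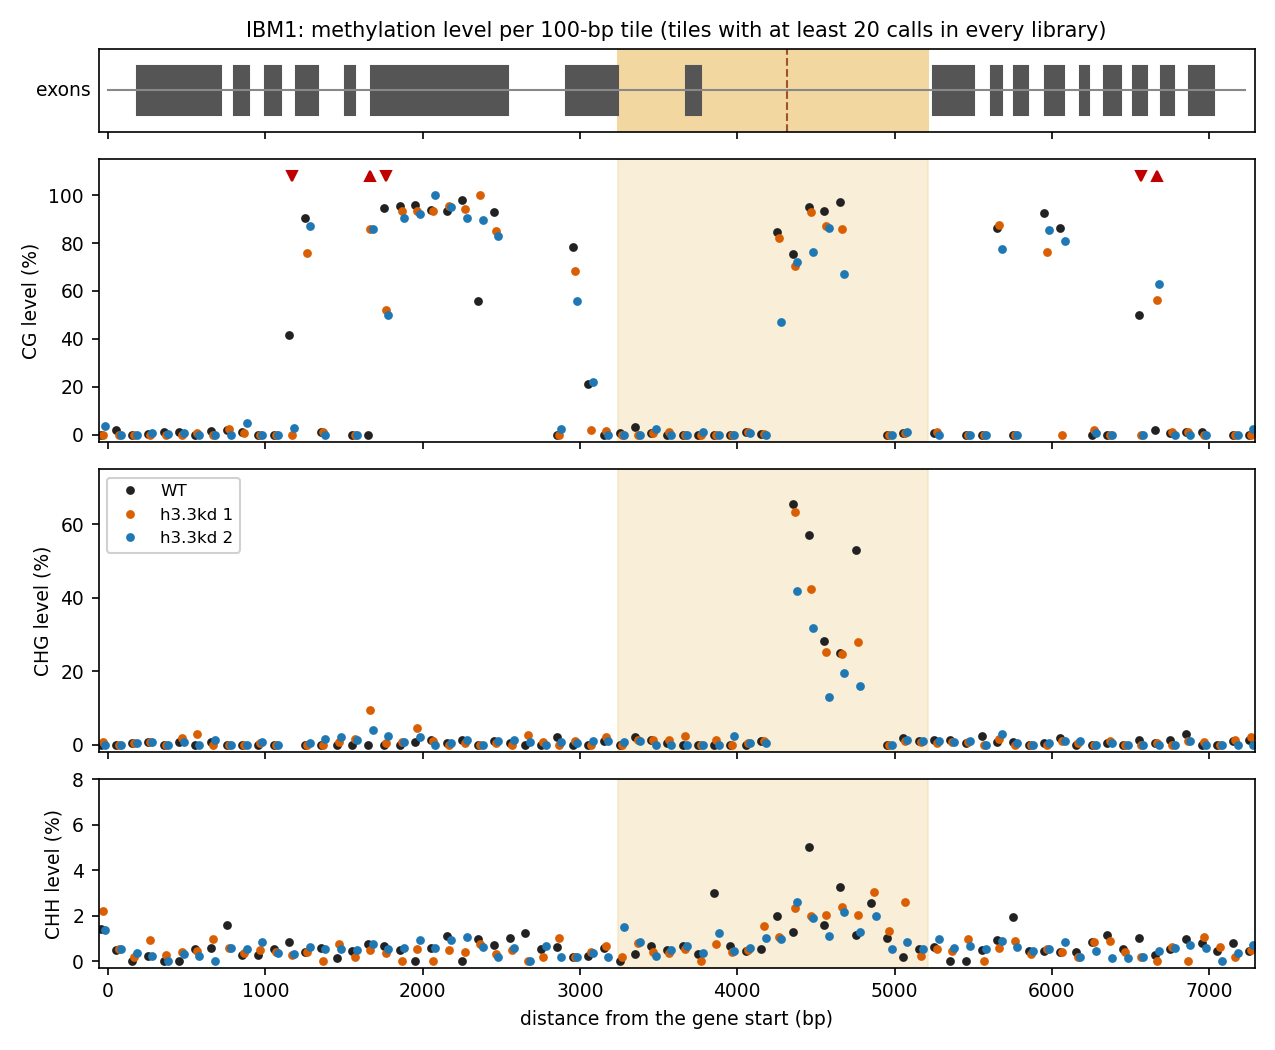
Methylation level (%) in CG, CHG and CHH of the 100-bp tiles along *IBM1* against the distance from the gene start (bp), with 1 point per library and tile. The upper strip shows the exons of the transcript with the longest coding sequence (boxes), the long intron (shaded) and the end of the short transcript (dashed); red triangles mark the 3 CG tiles called lower (pointing down) and the 2 called higher (pointing up), and CHG levels above 10% lie in the shaded block alone.

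In the long intron the CHG level of WT was 11.3% (2581 calls, 10.1% to 12.6%), that of *h3.3kd* 1 was 9.98% (2455 calls, 8.86% to 11.2%) and that of *h3.3kd* 2 was 6.20% (2435 calls, 5.31% to 7.23%). The interval of *h3.3kd* 2 lay below both others, while those of WT and *h3.3kd* 1 overlapped. The *h3.3kd* mean was 8.09% ± 2.67 (SD, n = 2), or -3.18 points against WT, a difference of about the size of the spread. Fisher's exact test gave an FDR of 1 for *h3.3kd* 1 against WT, 3.19e-07 for *h3.3kd* 2 against WT and 0.00633 for *h3.3kd* 2 against *h3.3kd* 1. The intron was not called, since the difference stayed under 10 points and *h3.3kd* 1 missed the FDR. The share of its CHG calls that fell in the methylated block (2430122 to 2430635) was 26.7%, 30.7% and 29.4%. The part of coverage in the level of the whole intron was not tested. Within the block CHG was at 40.3% (36.7% to 44.0%), 30.7% (27.5% to 34.1%) and 19.9% (17.1% to 22.9%), with intervals apart. The block was found from the data, so these levels carry no test.

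Nearly all of the CHG methylation lay beyond the end of the short transcript. Over the 1079 bp of intron up to that end it was 0.53%, 0.82% and 0.36%. Over the 895 bp beyond it the levels were 26.5%, 23.5% and 13.9%, a difference of -3.06 points in *h3.3kd* 1 (FDR of 1 by Fisher's exact test) and -12.6 points in *h3.3kd* 2 (FDR 7.87e-10). This division of the intron was chosen after the data had been examined.

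The 3 tiles of the intron with the highest pooled CHG level stood in the same order of libraries. The tile at 2430201 was at 65.5% (55 calls), 63.4% (41 calls) and 41.9% (43 calls), with an FDR of 1 for both by Fisher's exact test. The tile at 2430301 was at 57.1% (161 calls), 42.3% (156 calls) and 31.7% (167 calls), with FDRs of 0.729 and 0.00226. The tile at 2430601 was at 53.1% (96 calls), 28.0% (100 calls) and 16.04% (106 calls), with FDRs of 0.0928 and 2.06e-05. It holds no CG, so CHG was the main methylation there. WT was highest and *h3.3kd* 2 lowest in each, and the difference between the *h3.3kd* libraries passed in none of the 3 (FDR of 1). With *h3.3kd* 1 left out, which can only keep or add calls, 2 CHG tiles of the gene were called lower, where 0 were with both.

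Single cytosines gave the same picture. Of 98 CHG cytosines of the intron with at least 10 calls in every library, 28 had a pooled level of at least 10%. The span of 341 bp held these 28 and 1 other CHG cytosine. Of the 28, 18 were lower in *h3.3kd* 1 than in WT, 24 were lower in *h3.3kd* 2 than in WT and 17 were lower in both. *h3.3kd* 2 was below *h3.3kd* 1 at 24. Their median levels were 39.6%, 27.0% and 16.1%. All 13 CAG and 13 CTG cytosines of the span were among the 28, and 2 of its 3 CCG cytosines. The cytosines share reads and lie close together, so these counts describe 1 stretch and carry no test.

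**Figure D2:**
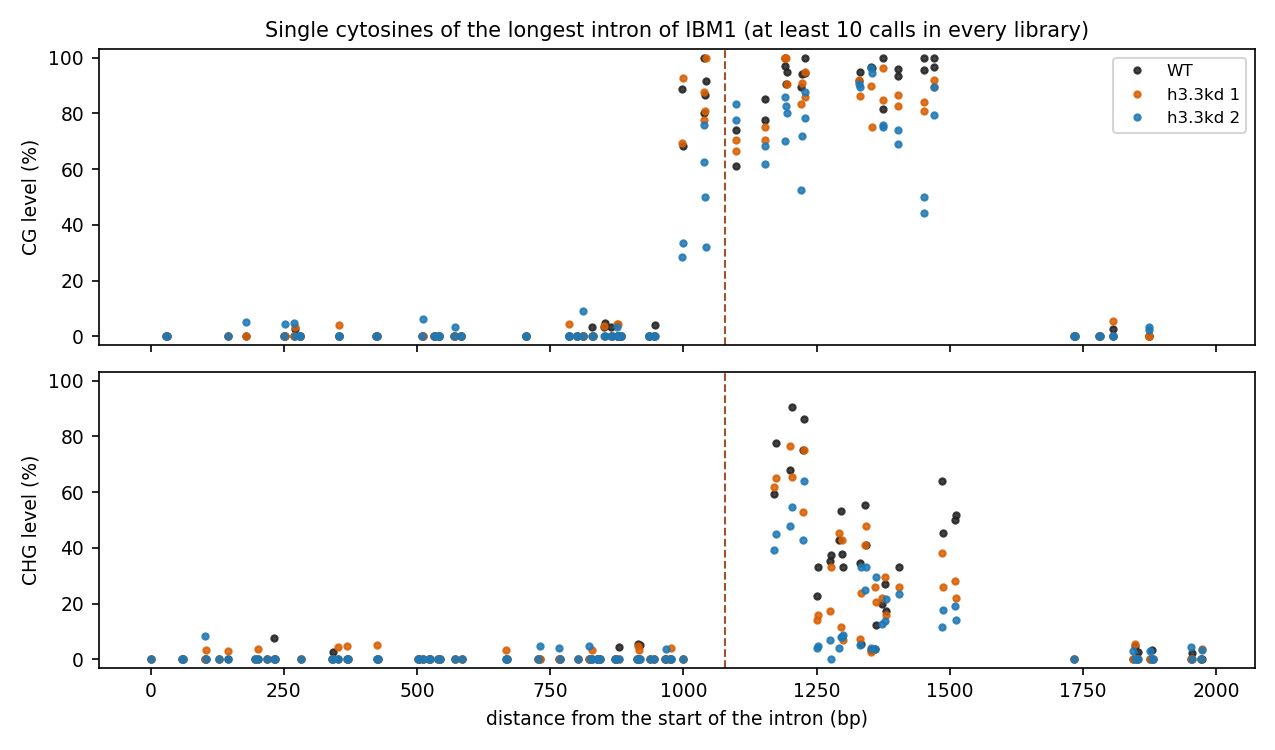
CG (upper panel) and CHG (lower panel) level (%) of single cytosines against their distance from the start of the long intron (bp), with 1 point per cytosine and library (at least 10 calls in every library). The dashed line is the end of the short transcript, at 1079 bp; CG methylation starts at 998 bp, CHG methylation starts at 1171 bp, and the points of *h3.3kd* 2 lie lowest over most of the block.

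CG methylation of the same block fell in *h3.3kd* 2 as well, in part of the block. Over the whole intron CG was at 29.7% (2202 calls), 29.0% (2089 calls) and 25.0% (2057 calls), with FDRs of 1 and 0.00487 against WT and 0.0702 between the *h3.3kd* libraries (Fisher's exact test). The tile at 2430101 was at 84.7%, 82.0% and 47.0%, and *h3.3kd* 2 was below WT (FDR 4.98e-10) and below *h3.3kd* 1 (FDR 6.40e-08). The tile at 2430501 was at 97.3%, 85.7% and 66.9%, with FDRs of 0.00546 and 1.06e-11 against WT, but *h3.3kd* 1 differed by less than 20 points, so it was not called. The tile at 2430201 was at 75.2%, 70.6% and 72.2%, without a difference that passed. Of the 15 CG dyads of the intron methylated in WT, 12 were methylated (at least 60%) in every library, and 0 became unmethylated (under 10%). The other 3 stayed methylated in *h3.3kd* 1 and were at 30.6% (2430122), 41.2% (2430165) and 46.8% (2430575) in *h3.3kd* 2.

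The CG difference of the intron (*h3.3kd* mean against WT) depended on the strand, with -7.18 points for cytosines of the plus strand and 1.98 points for the minus strand. The CHG difference was also larger on the plus strand, at -5.64 points, than on the minus strand, at -1.18 points. In *h3.3kd* 2 alone it was -8.40 points on the plus strand and -2.22 points on the minus strand. The share of CG calls of the minus strand that fell in the methylated block (2430122 to 2430635) was 26.9%, 32.8% and 36.2%, and on the plus strand 37.8%, 34.5% and 34.6%; the part of coverage in the strand difference was not tested. Within the block the strands moved together. CG on the plus strand was at 89.2%, 84.0% and 69.5%, and on the minus strand at 92.1%, 86.3% and 69.7%. CHG in the block was at 39.3%, 30.02% and 16.1% on the plus strand and at 41.7%, 31.5% and 24.2% on the minus strand. The block was found from the data, so its levels are a description.

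CHH methylation of the intron was low. It was 1.24%, 1.20% and 1.05% (10853 to 11344 calls), and neither library passed against WT (FDR of 1 for both, Fisher's exact test). In the span of CHG methylation it was 2.93% (2.26% to 3.80%), 1.99% (1.44% to 2.74%) and 1.67% (1.19% to 2.35%), with overlapping intervals. CAA and CTA cytosines, the CHH sites that CMT2 prefers, were at 2.82%, 3.09% and 1.88% beyond the end of the short transcript, and other CHH cytosines there at 1.11%, 1.37% and 1.15%. Within CHG, CAG was at 32.4%, 26.6% and 14.9% there, CTG at 25.8%, 24.8% and 14.3% and CCG, which CMT3 methylates poorly, at 8.33%, 11.2% and 9.22%.

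The start of the methylated block coincided with DNA that resembles the chloroplast genome. Bases 1001 to 1187 of the intron (2430125 to 2430311) aligned with the chloroplast gene *ycf1*, in both copies of the inverted repeat, with 85.1% identity. All or most of the stretch also aligned with pieces of chromosomes 2, 4 and 5 and of the mitochondrial genome at 77.9% to 83.0% identity, and shorter parts of it (47 and 48 bp) with chromosomes 5 and 3 at 91.5% and 89.6%. The stretch contained 8 CG cytosines at 80.4%, 78.4% and 62.6%, and 2 CHG cytosines, the first of the CHG block. Most of the CHG cytosines of the block lay after it. Of the 1939 words of 36 bases in the intron, 2 occurred elsewhere in the genome on either strand. The stretch had 22.2, 21.0 and 21.6 calls per cytosine, near the mean of the gene in each library.

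Outside the intron, *IBM1* gained and lost CG methylation at isolated sites. The counts below are for the whole gene and include the tiles, exons and introns that lie in or overlap the long intron. All tiles, exons and introns that were called lay outside the long intron. Of 62 tiles tested for CG, 3 were lower (4.84%; 2.59% of all tiles tested were called lower) and 2 were higher (3.23%; 1.19% of all). Of 27 exons and introns tested for CG, 2 were lower (7.41%; 6.73% of all) and 2 were higher (7.41%; 2.29% of all). For CHG, 0 of 71 tiles and 0 of 32 exons and introns were called, where 0.0719% of all tiles were lower and 0.0482% higher, and 0.0561% of all exons and introns were lower and 0.0166% higher. For CHH, 0 of 74 tiles and 0 of 33 exons and introns were called, against 0.0127% lower and 0.00521% higher among all tiles and 0.00683% lower and 0.0019% higher among all exons and introns. The CG shares rest on 2 or 3 features each, so no departure from the background is read from them.

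Exon 4 (2427080 to 2427218) fell from 54.4% (149 calls, 46.4% to 62.2%) to 22.5% (129 calls, 16.1% to 30.4%) and 28.2% (156 calls, 21.7% to 35.7%), with FDRs of 6.94e-07 and 4.75e-05 by Fisher's exact test. Exon 15 (2432397 to 2432486) was at 50% in WT (39 of 78 calls) and had 0 of 84 and 0 of 64 calls methylated in *h3.3kd*, which allows up to 3.57% and 4.69% (FDR 1.99e-14 and 5.23e-12, Fisher's exact test). Exon 16 (2432575 to 2432661) rose from 1.14% in WT (176 calls) to 19.7% (147 calls) and 25.0% (164 calls), with FDRs of 8.68e-08 and 6.81e-11. Intron 5 (2427451 to 2427555) had 0 of 37 calls methylated in WT, which allows up to 8.11%, and was at 86.0% (50 calls) and 85.7% (49 calls) in *h3.3kd* (FDR 3.97e-16 and 5.17e-16). In each of the 4 the *h3.3kd* libraries lay together and apart from WT, and no difference between them passed the test (FDR of 1). Both came from lines of 1 parental genotype, and the part of descent in what they share was not tested. With limma on log2 ratios, which has 1 residual degree of freedom here, none of the 4 was called (smallest FDR among *IBM1* exons and introns 0.226, 6 with an unadjusted p under 0.05).

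**Figure D3:**
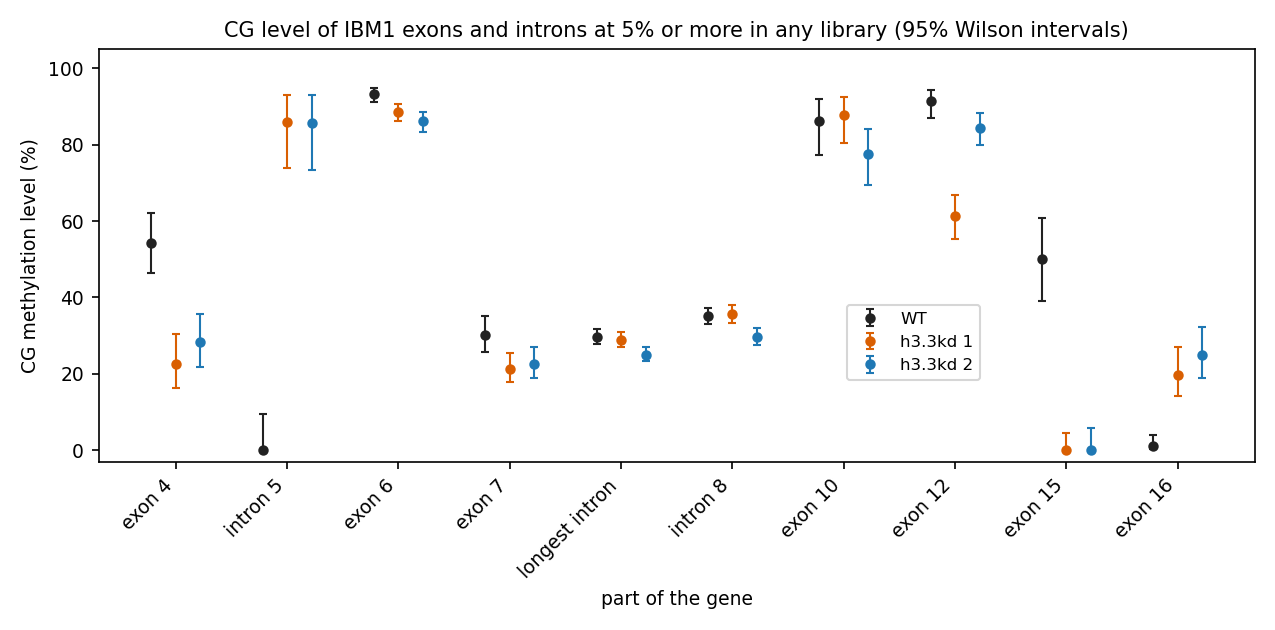
CG methylation level (%) with 95% Wilson intervals (bars) of the exons and introns of *IBM1* at 5% or more in any library, in their order along the gene, with 1 point per library. The long intron overlaps intron 8 of the 17-exon transcript; exon 4 and exon 15 lie lower and intron 5 and exon 16 higher than WT for both *h3.3kd* libraries, whereas exon 12 is low in *h3.3kd* 1 alone (61.2%).

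Each of these changes came down to a single CG dyad. In exon 4 the dyad at 2427090 was at 82.7% in WT (52 calls), had 0 of 41 calls methylated in *h3.3kd* 1 (up to 7.32%) and was at 5.6% in *h3.3kd* 2 (54 calls), whereas the next dyad, at 2427106, was at 90.2%, 75.7% and 87.2%. In exon 6 the dyad at 2427644 went from 93.8% (48 calls) to 0 of 36 and 0 of 39 calls (up to 8.33% and 7.69%). The next dyad, at 2427698, stayed at 95.2%, 95.3% and 95.3%. Loss of that 1 dyad was the basis of the called tile at 2427601, where the CG levels were 94.5%, 51.9% and 50%. In exon 15 the dyad at 2432448 went from 95.1% (41 calls) to 0 of 33 and 0 of 29 calls (up to 9.09% and 10.3%). The called tiles at 2427001 (41.5%, 0% with up to 2.91% allowed, and 2.86%) and 2432401 hold the dyads lost in exons 4 and 15. The gain of intron 5 was that of its only dyad, at 2427526, which is also the only dyad of the called tile at 2427501. The gain of exon 16 and of the called tile at 2432501 was that of the dyad at 2432581, at 1.9% (53 calls), 56.0% (50 calls) and 63.1% (65 calls). The dyad gained in intron 5 is the one just before the dyad lost in exon 6.

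All 146 CG dyads of *IBM1* had at least 10 calls in every library. In WT, 46 were methylated (at least 60%), 98 unmethylated (under 10%) and 2 between. Of the 46, 36 were methylated in every library, and 3 were unmethylated in both *h3.3kd* libraries (6.52%; 7.29% of the dyads of all protein-coding genes that were methylated in WT). Of the 98, 95 were unmethylated in every library and 1 was methylated in both *h3.3kd* libraries (1.02%; 0.892% of all). All 3 dyads lost in both lay outside the intron. Both shares were close to those of all protein-coding genes, on 3 dyads and 1 dyad.

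Other changes were seen in 1 *h3.3kd* library alone. Exon 12 was at 91.3% (231 calls), 61.2% (263 calls) and 84.5% (290 calls), with FDRs of 6.30e-14 and 0.126 against WT and 5.83e-08 between the *h3.3kd* libraries (Fisher's exact test). Its dyad at 2431917 had 0 of 52 calls in *h3.3kd* 1 (up to 5.77%) against 86.4% (44 calls) in WT and 81.0% (63 calls) in *h3.3kd* 2. The dyad at 2428973 in exon 7 was at 63.0% (27 calls), 4.2% (48 calls) and 69.7% (33 calls). Both dyads that were unmethylated in 1 *h3.3kd* library alone were thus so in *h3.3kd* 1. The methylated block of the intron, in contrast, was lowest in *h3.3kd* 2. There *h3.3kd* 1 lay below WT too, for CG (85.1% against 90.3% in WT) and for CHG (30.7% against 40.3%). In all, 3 CG tiles of *IBM1* differed between the *h3.3kd* libraries by at least 20 points at an FDR under 0.01 (Fisher's exact test). In the 100 kb on either side, the gene included, 6.79% of 280 tiles with a CG level of at least 20% did so, against 5.92% of 300388 such tiles in the genome.

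Many dyads of the gene body stayed methylated. In exon 6, 18 of the 19 dyads were methylated in both *h3.3kd* libraries, and its CG levels were 93.3%, 88.7% and 86.1% (FDR 0.0205 and 0.000113, Fisher's exact test). The dyad at 2428276 rose from 55.9% (34 calls) to 100% (25 calls) and 89.5% (38 calls), and its tile passed the FDR in *h3.3kd* 1 (0.000953) but not in *h3.3kd* 2 (0.0359, Fisher's exact test). In exon 7 the dyad at 2428849 went from 97.6% (42 calls) to 67.5% (40 calls) and 60% (24 of 40 calls), and the exon was at 30.2%, 21.4% and 22.6% (FDR 0.0263 and 0.102, Fisher's exact test). Over the gene without the intron, CG was at 28.2%, 25.4% and 27.1% (4172 to 4396 calls), with FDRs of 0.0124 and 0.448. The *h3.3kd* mean of 26.3% ± 1.21 (SD, n = 2) was 1.92 points below WT. CHH of the same part was 0.564%, 0.435% and 0.475%, without a difference that passed (FDR 0.377 and 0.687).

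CHG outside the intron was not lower than in WT. It was at 0.509% (7661 calls, 0.373% to 0.695%), 0.805% (8078 calls, 0.632% to 1.02%) and 0.817% (7712 calls, 0.639% to 1.04%), with FDRs of 0.381 and 0.374 by Fisher's exact test. Before the intron it was 0.368% (0.233% to 0.581%), 0.961% (0.730% to 1.26%) and 0.902% (0.675% to 1.20%), and after it 0.759%, 0.522% and 0.661%. The tile of the gained dyad in intron 5, at 2427501, had 0 of 123 CHG calls methylated in WT (up to 2.44%), was at 9.52% and 4.08% in *h3.3kd*, and was not called. Before the intron the interval of WT lay below those of *h3.3kd*, but this division was made once the data had been seen and carries no test.

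The whole gene body was called for neither CG nor CHG. CG was at 28.7%, 26.6% and 26.5% with FDRs of 0.0193 and 0.0127 (Fisher's exact test over gene bodies), where 1.44% of gene bodies were called lower and 0.304% higher. CHG was at 3.22%, 2.94% and 2.11%. *h3.3kd* 2 passed the FDR against WT (8.55e-05) and *h3.3kd* 1 did not (0.919), and the *h3.3kd* libraries differed from each other with an FDR of 0.0464. Of all gene bodies tested for CHG, 0.186% were called lower and 0.0408% higher.

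Other introns of at least 500 bp were set beside the long intron of *IBM1*. Of 4564 with enough calls, 391 had a pooled CHG level of at least 5%. Their median CHG difference from WT was -0.877 points in *h3.3kd* 1 and -1.20 points in *h3.3kd* 2, and 190 were lower than WT in both by any amount. The difference of *IBM1* in *h3.3kd* 2 (-5.07 points) was reached or exceeded by 88 of the 391, and that in *h3.3kd* 1 (-1.30 points) by 179. The range from the 5th to the 95th percentile was -10.8 to 7.58 points in *h3.3kd* 2. In points over the whole intron, the drop of *IBM1* was thus within the range of methylated introns. These introns differ widely in CHG level, and drops relative to the WT level were not compared. All comparisons share the WT library.

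**Figure D4:**
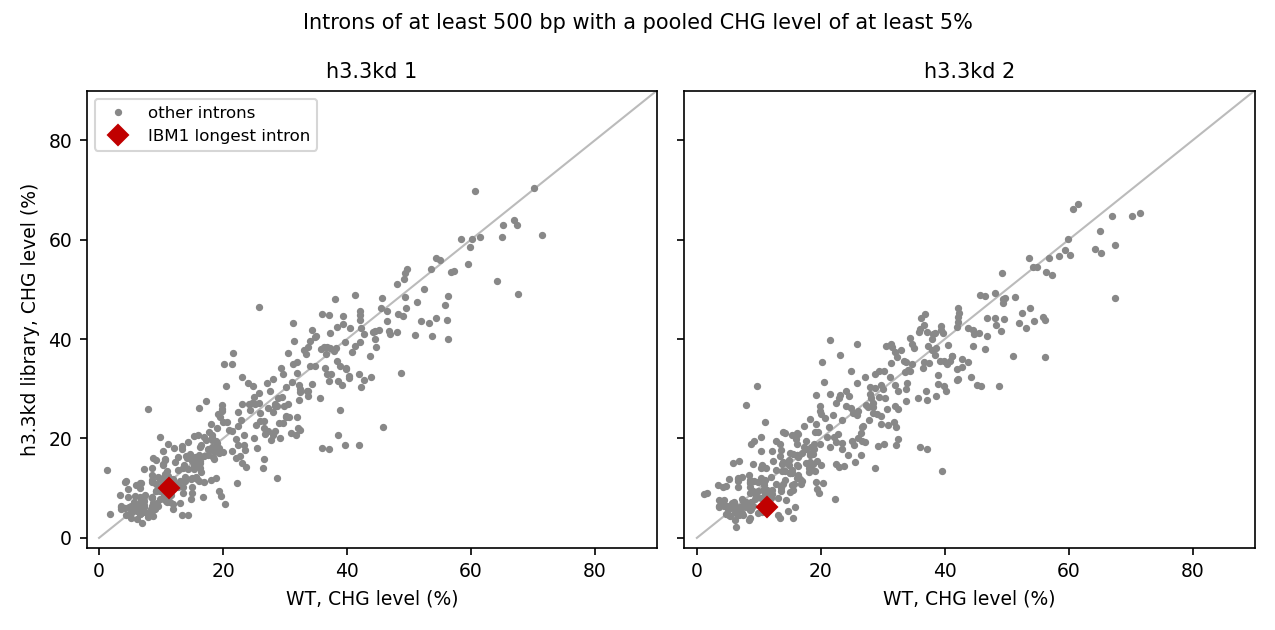
CHG level (%) of introns of at least 500 bp with a pooled CHG level of at least 5% in *h3.3kd* 1 (left) and *h3.3kd* 2 (right) against WT, with 1 point per intron and the line of equal levels in grey. The intron of *IBM1* (red diamond) was at 11.3%, 9.98% and 6.20%, inside the cloud of the other 391 introns.

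The 5 introns most like it by Euclidean distance over the 9 levels (3 contexts in 3 libraries) were in AT4G02320, *CAM7*, *CYP71A20*, AT1G31710 and *PAP5*, at distances of 6.20 to 9.03 points. The distance uses the *h3.3kd* levels too, so how these introns differ from WT is partly set by their choice and is given as a description. Intron 1 of AT4G02320 (1660 bp) was at 12.2%, 10.7% and 9.72% for CHG. Intron 3 of *PAP5* (1470 bp) was at 6.38%, 6.54% and 2.09%. Intron 2 of *CAM7* (1236 bp), a calmodulin gene, was at 6.61%, 11.1% and 11.8%. Of 3 genes whose transcripts are known to depend on EDM2 or IBM2, 2 had longest introns with higher levels than *IBM1*. The longest intron of the disease resistance gene *RPP7* (7384 bp) was at 64.2%, 51.7% and 58.1% for CHG, and that of *PPD7* (5748 bp) at 67.4%, 63.0% and 58.8%. Both were lower in each *h3.3kd* library (FDR of 0.000335 or less, Fisher's exact test), but by less than 10 points in 1 or both, so neither was called. The longest intron of AT1G11270 in the 1 transcript used (123 bp) was at 1.88% in WT, with 0 of 138 and 0 of 164 calls in *h3.3kd* (up to 2.17% and 1.83%). Introns of its other transcripts, if any, were not examined.

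Of the 9 genes of the pathway that acts on or with *IBM1*, 0 were called in CG, CHG or CHH. Of all gene bodies, 1.44% were called lower and 0.304% higher for CG, 0.186% and 0.0408% for CHG, and 0 of 27221 for CHH, so a count of 0 among 9 is near the background. Among the factors for the intron, *IBM2* was at CG levels of 42.8%, 39.5% and 37.0%, *EDM2* at 40.1%, 41.8% and 42.0%, and *AIPP1* at 0.412%, 0.411% and 0.436%. Among the H3K9 methyltransferases, *SUVH5* was at 39.6%, 44.4% and 45.4% (FDR 0.000227 and 6.21e-06, Fisher's exact test), *SUVH4* at 35.7%, 35.7% and 36.1%, and *SUVH6* at 25.0%, 23.1% and 22.1%. The methyltransferase genes *MET1* (11.3%, 7.195% and 7.40%) and *CMT3* (12.4%, 10% and 8.80%) also fell in both libraries by the FDR alone, by less than 10 points. With *IBM2*, 3 of the 9 (33.3%) were lower by this weaker rule and 1, *SUVH5*, was higher (11.1%), against 19.0% and 4.84% of all genes. Their median CG difference was 0.0116 points, beside -0.221 points for all genes. *LDL2*, a lysine demethylase gene, was at 4.12%, 5.16% and 5.38%. For CHG, *SUVH4*, which methylates H3K9, was at 0.613%, 0.873% and 1.45%, with FDRs of 0.664 and 7.76e-05, and *CMT3* at 1.08%, 0.622% and 0.531%, with FDRs of 0.0742 and 0.00570.

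The other KDM3-type JmjC genes, relatives of *IBM1*, gave 0 calls among 5, with the same shares of all gene bodies as background. *JMJ29* was at CG levels of 45.9%, 39.4% and 39.1% (FDR 5.39e-16 and 3.66e-17, Fisher's exact test), under the threshold of 10 points. *JMJ26* was at 31.9%, 35.4% and 35.5% (FDR 0.00356 and 0.00256). By the FDR alone 1 of the 5 (20%) was thus lower and 1 (20%) higher, against 19.0% and 4.84% of all genes. The median CG difference of the 5 was -0.926 points. *JMJ24*, *JMJ27* and *JMJ28* did not pass in both libraries. *JMJ29* was the one relative with CHG over its body, at 8.01%, 6.60% and 6.51% with FDRs of 0.0620 and 0.0345. *BNS*, the gene whose methylation rises without IBM1 and which was added after the lists had been set, was at a CHG level of 0.936%, 0.701% and 1.12%, with an FDR of 1 for both.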

How the data were processed

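BS-seq libraries of mature leaves were grouped by genotype and replicate number in their labels (1 WT, 2 *h3.3kd*). Per the methods of the study, identical reads were collapsed and mapped to TAIR10 with BS Seeker, whose version and settings are not given in the sources used here. Deposited files hold counts of C and of T reads at each cytosine, by strand, neither normalized nor pooled. Genome-wide, 1.23% to 1.25% of cytosines stood on 2 lines, which were summed; in *IBM1* 0 did. All listed positions fell on cytosines of the reference used (RefSeq, TAIR10 coordinates), which also gave the gene models and sequences.

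Levels were C calls over C and T calls. Features with at least 20 calls in every library (gene bodies: 100 calls and 10 sites) entered two-sided Fisher's exact tests of the counts with Benjamini-Hochberg adjustment over the nuclear genome, compared with scipy 1.17.1 and tested on simulated data. One transcript per gene gave exons and introns. The long intron comes from another *IBM1* transcript and was added to that family. Similarity was searched with blastn 2.17.0+ at an E-value under 1e-05. The genes, lists and tests were chosen with earlier results of these data known. Named were every *IBM1* exon, intron and tile called, the 3 intron tiles highest in pooled CHG, the 5 nearest introns (at least 500 bp, 100 calls per context), a pathway list, a family list and genes with EDM2- or IBM2-dependent introns. Values of other exons, tiles and dyads were named after they had been seen. Alternatives were other call minimums (10, 40 or 100), thresholds (5, 10 or 20 points), a grid shifted by 50 bp, single strands, means of site levels (at least 4 calls), leaving out each *h3.3kd* library, and limma 3.58.1 on log2 ratios (0.5 added, FDR under 0.05).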

Additional observations from a re-analysis of the deposited data

How the results depend on the processing

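Of 126 alternatives tried, 102 kept the result in direction and call or near its value. Many of these were counts of 0 that stayed 0, or uncalled differences that stayed uncalled with the same sign, whatever their size. The tally is thus no measure of robustness. Without *h3.3kd* replicate 1 or 2, the CG tiles of *IBM1* called lower ranged from 4 to 6 (3 with both) and the CHG tiles from 0 to 2 (0 with both); gene bodies called lower ranged from 523 to 710 for CG (389 with both) and from 0 to 1 for CHH, and those called higher from 136 to 154 for CG (82 with both) and from 19 to 23 for CHG (11 with both). These counts could only stay or rise, since a call with both libraries needs each of them to pass. At 40 calls per tile, 1 CG tile stayed higher. At 100 calls, 1 exon or intron was lower and 1 higher for CG, and at 20 points 1 was higher. At 5 points, 2341 gene bodies were lower and 360 higher for CG, 118 lower and 33 higher for CHG, and 7 lower for CHH. limma called 0 exons and introns in either direction, and 0 of all 221312 for CG, with 6 of *IBM1* at an unadjusted p under 0.05. Its fit has 1 residual degree of freedom per feature, and the variance is shared in part over all features. The difference of the intron turned to 1.98 points for CG on the minus strand (share of calls in the block, above), to 0.114 points for CHH on the plus strand, and to 0.063 points for CHG up to the end of the short transcript, an alternative added after the data had been seen; the cause of the CHH change was not tested. As means of site levels, the intron difference was -4.26 points for CG (-2.70 weighted by calls) and -4.53 points for CHG (-3.18 weighted by calls), and those outside the intron were -3.37 points for CG and 0.253 points for CHG. No paired analysis was possible because there was 1 WT library for 2 *h3.3kd* libraries. A tile with 20 calls cannot resolve small differences, and WT was not replicated.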
